A study of Mus musculus with 6 samples.

Results

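The FACIT collagens, fibril-associated collagens with interrupted triple helices, were described here through 9 genes, Col9a1, Col9a2, Col9a3, Col12a1, Col14a1, Col16a1, Col19a1, Col20a1 and Col22a1, out of 55536 genes in the deposited count matrix. They were chosen by symbol, matched to Ensembl gene identifiers in the GENCODE M21 annotation. The rule used no values, but earlier results of these data were known when the genes were chosen. RNA was sequenced from limb bone perichondrium, the connective tissue sheath of cartilage, of mice at postnatal day 4. The 3 wild-type libraries were WT-596, WT-597 and WT-795, and the 3 knockout libraries mut-596, mut-597 and mut-795 came from mice labelled Fbn1Scx-/-, in which fibrillin-1 was deleted by a Cre recombinase under the scleraxis promoter. That Cre acts in tendon, ligament and related connective tissue progenitors, so cells without it in the dissected tissue keep Fbn1. The title of mut-596 ends in ScxCRE, and those of mut-597 and mut-795 end in PC-Koscx. Whether this difference in the titles marks a difference between the mice was not tested. Values per library are listed below in the order in which the libraries of each group are named here. The meaning of the numbers in the titles, whether each library came from a separate animal and whether the wild types carried Cre is stated nowhere in the labels, so p-values rest on the variation among these libraries, which may be technical.

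FACIT molecules do not form fibrils themselves. They lie on the surface of fibrils made by other collagens, and their triple-helical stretches alternate with short flexible hinges that let large non-collagenous domains project into the matrix. Type IX collagen, a heterotrimer of the chains from Col9a1, Col9a2 and Col9a3, decorates the type II and XI fibrils of cartilage. Types XII and XIV bind type I fibrils in tendon, perichondrium, skin and other dense tissue, type XVI is found with small collagen fibrils and with fibrillin-1 microfibrils, and type XXII marks the junction of muscle and tendon. Types XIX and XX are sparse chains of muscle, nervous and epithelial tissues.

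Total counts lay between 7209217 and 10316017 per library. Fbn1 itself, read first as the check of the labels, had 76, 45 and 69 counts in the knockouts and 1255, 898 and 458 in the wild types. Knockout against wild type gave a log2 fold change of -3.48 (SE 0.29, edgeR adjusted p = 1.03e-04). WT-795 stood apart from the other wild types: with it left out, the genes past an edgeR adjusted p of 0.05 went from 1 to 1517. Among tested genes with a transcript GC content of 60% to 65%, the median deviation of log2 CPM from the mean of all libraries was 0.38 in WT-596 and 0.47 in WT-597, but -0.12 in WT-795, and -0.38, -0.04 and -0.23 in the knockouts. All 10 markers of perichondrium and fibroblasts were measured, with a summed level of 4680 to 5410 CPM in wild type and 5400 to 6110 CPM in knockout. Postn alone gave 2420 to 2860 CPM and 2760 to 3230 CPM of these sums. The 15 chondrocyte markers summed to 2130 to 3390 CPM in wild type and 2990 to 3070 CPM in knockout, but Col11a1 alone gave 1710 to 2850 CPM and 2590 to 2710 CPM of these sums. The defining cartilage genes Col2a1 and Acan were at 79.8 to 150 CPM and 101 to 138 CPM in wild type, and 48.1 to 103 CPM and 68.9 to 91.8 CPM in knockout. The 12 skeletal muscle markers summed to 3310 to 10800 CPM in wild type and 2470 to 4900 CPM in knockout. No marker of these 3 lists had 0 counts over all libraries. The 7 blood markers summed to 5810 to 18600 CPM in wild type and 2730 to 19600 CPM in knockout, most of it from globin genes. The 7 osteoblast markers summed to 2140 to 2530 CPM in wild type and 1790 to 2440 CPM in knockout. Xist, an RNA of female cells, was counted 6221 times in mut-596, 4024 times in mut-597 and 1 to 4 times in each of the other 4 libraries, so it was not balanced between the groups, and its part in the results was not tested beyond a covariate.

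The starts of 3 genes differ in base composition, as does the body of their transcripts. Only the GC content of the transcripts is set beside the fold changes further on, and the upstream windows were compared with no fold change. Shown are the 250 bases upstream of the start on the plus strand in RefSeq's table for GRCm38.p6, which held 5 of the 9 genes. Capitals mark the GC box letters GGGCGG, searched on both strands. Col9a1 has 2 starts, an upstream start at chr1:24177360-24177609 and a downstream start at chr1:24194953-24195202. The downstream start is known to make a chain without the amino-terminal globular domain. A count per gene adds both.
Col9a1 upstream start: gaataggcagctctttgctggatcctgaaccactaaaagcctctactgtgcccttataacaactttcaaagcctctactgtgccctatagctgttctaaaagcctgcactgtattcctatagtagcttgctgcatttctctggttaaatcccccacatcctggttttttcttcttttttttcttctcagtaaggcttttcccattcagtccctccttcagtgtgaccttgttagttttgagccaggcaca
Col9a1 downstream start: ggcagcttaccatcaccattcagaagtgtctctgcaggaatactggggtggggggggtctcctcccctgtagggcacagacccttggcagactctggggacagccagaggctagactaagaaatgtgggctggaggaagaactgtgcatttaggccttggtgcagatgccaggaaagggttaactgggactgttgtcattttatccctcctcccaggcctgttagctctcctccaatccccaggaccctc
Col9a2 (chr4:121039316-121039565): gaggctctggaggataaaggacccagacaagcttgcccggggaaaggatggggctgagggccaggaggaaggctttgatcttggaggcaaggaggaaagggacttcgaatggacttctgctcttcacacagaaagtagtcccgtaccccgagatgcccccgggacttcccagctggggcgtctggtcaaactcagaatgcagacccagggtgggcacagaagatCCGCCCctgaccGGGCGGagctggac
Col16a1 (chr4:130047590-130047839): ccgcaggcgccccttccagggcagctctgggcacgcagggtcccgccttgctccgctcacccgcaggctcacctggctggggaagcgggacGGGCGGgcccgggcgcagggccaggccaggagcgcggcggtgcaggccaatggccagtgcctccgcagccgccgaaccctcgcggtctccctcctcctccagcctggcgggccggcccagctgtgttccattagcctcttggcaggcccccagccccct

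Neither Col9a1 window holds a CpG dinucleotide or a GC box, and their GC content is 43.6% and 56.0%. The Col9a2 window holds 9 CpG dinucleotides and 2 GC boxes at 60.4% GC, and the Col16a1 window 21 CpG dinucleotides and 1 GC box at 75.6% GC. Over all 32841 promoter windows of this length the median was 6 CpG dinucleotides and 52.4% GC, and 32.7% held a GC box. The letters ACAAAG or ACAATG, a core bound by SOX factors, and the letters TATAAA are in none of these 4 windows on either strand, beside 25.2% and 12.4% of all windows. The windows of Col19a1 and Col20a1 are not shown, and that of Col20a1 holds 1 match to the SOX letters. By the GENCODE gene start of 121039385, most of the Col9a2 window lies inside the gene. A match or its lack describes the letters only.

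In wild-type perichondrium Col12a1 was by far the most abundant FACIT transcript per length. On the scale of TMM-scaled CPM per kilobase of annotated exon, Col12a1 was at 111 ± 18.9, Col14a1 at 30.7 ± 6.94 and Col16a1 at 29.6 ± 5.15 (SD, n = 3). Next came Col22a1 at 5.57 ± 0.761, Col9a3 at 5.29 ± 2.23, Col9a1 at 4.12 ± 2.32 and Col9a2 at 2.73 ± 0.814 (SD, n = 3). Col20a1 and Col19a1 were last, at 0.110 ± 0.0496 and 0.0296 ± 0.0221 (SD, n = 3). Ranges of the wild-type libraries did not overlap between Col12a1 and Col14a1, between Col16a1 and Col22a1, or between Col9a2 and Col20a1. Neighbours overlapped elsewhere in the order, that is Col14a1 with Col16a1, all neighbours from Col22a1 to Col9a2, and Col20a1 with Col19a1. Among 44 collagen genes ranked by wild-type level per kilobase, Col12a1 was at rank 7, Col14a1 at 13, Col16a1 at 14, Col22a1 at 23, the type IX chain genes at 24 to 29, Col20a1 at 36 and Col19a1 at 43.

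The order in knockout had the same first 3 genes, with means per kilobase of 113 for Col12a1, 34.6 for Col14a1 and 21.1 for Col16a1. Col9a1 and Col9a3 stood above Col22a1 there, at 5.30, 4.92 and 4.33, with overlapping ranges from each to the next. The FACIT genes together took 4.92%, 4.80% and 6.10% of all collagen gene counts in the wild types, and 5.43%, 5.19% and 5.92% in the knockouts. Of the FACIT counts, Col12a1 supplied between 75.0% and 78.8% in every library, a share that also follows from its long transcript.

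**Figure D1:**
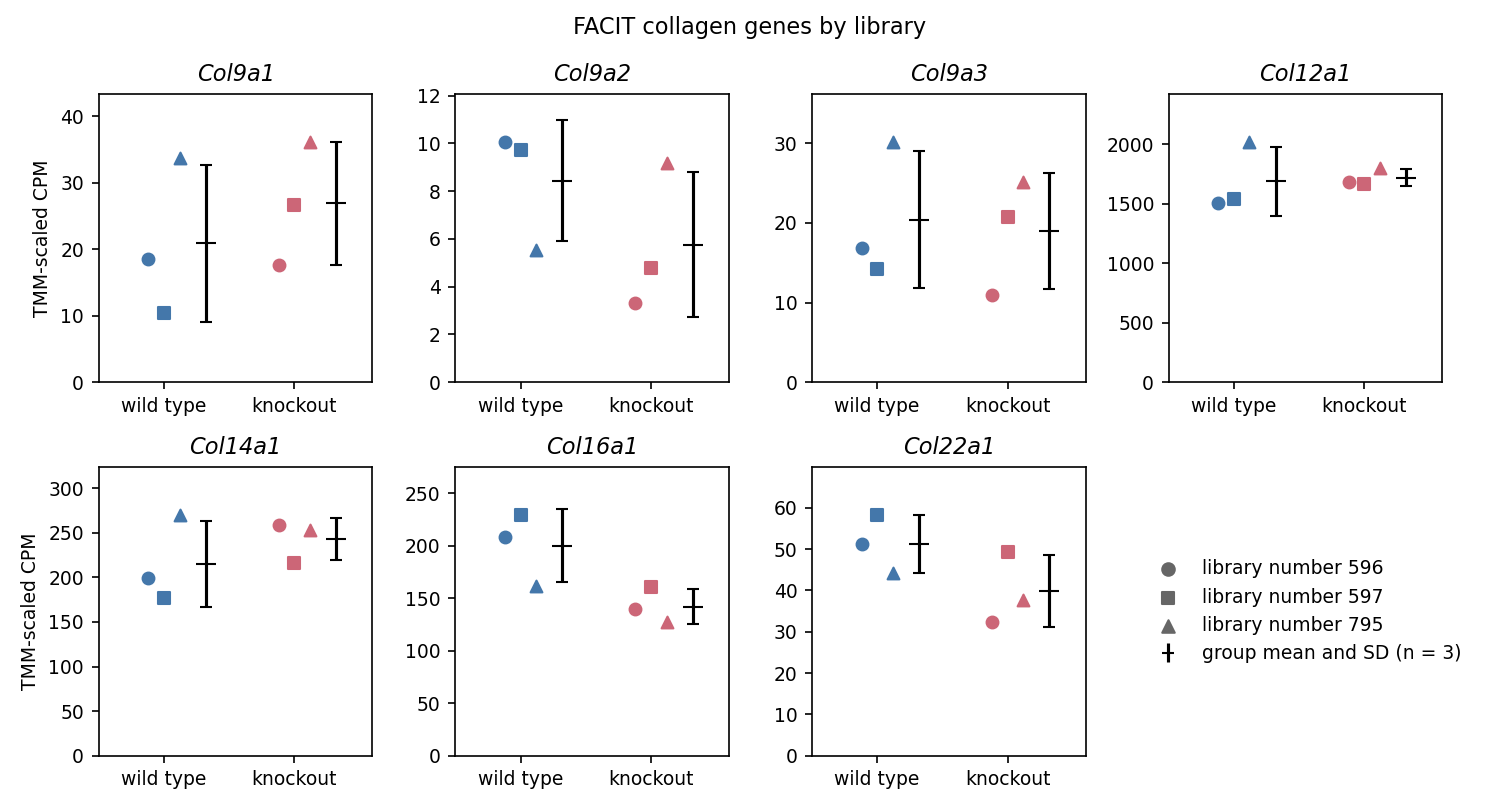
Level of the 7 FACIT genes that passed the filter on low counts, in TMM-scaled CPM (vertical axis from 0, its range set per gene), for 3 wild-type (blue) and 3 knockout (red) libraries, with mean and SD in black and marker shape for the number in the title. Groups overlap for every gene but Col16a1, where WT-795 at 161.2 CPM lies just above mut-597 at 160.6 CPM.

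The comparison of knockout with wild type asked whether loss of fibrillin-1 goes with a different level of fibril-surface collagens. Of the 9 genes, 7 passed the filter on low counts and were tested among 15712 genes, and Col19a1 and Col20a1 did not pass it. None of the 7 passed an adjusted p of 0.05 by edgeR's quasi-likelihood test, beside 0.00636% of all genes tested, which is Fbn1 alone. At an unadjusted p under 0.05 stood 1 of the 7, Col16a1, beside 10.5% of all genes tested. DESeq2 gave an adjusted p for 5 of the 9 and called none of those, with Col16a1 at an unadjusted p of 0.0247. The libraries of the groups did not overlap for 1 of the 7, again Col16a1, beside 11.9% of all genes tested. Of the 7 log2 fold changes 3 lay above 0 and 4 below, with a median of -0.09 beside 0.01 for all genes tested, and the shares are near the background. In bulk tissue fewer cells of a type and less RNA per cell cannot be told apart.

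Col12a1 encodes the main FACIT of dense connective tissue, whose chain binds type I collagen fibrils, decorin, fibromodulin and tenascin-X. The gene (ENSMUSG00000032332) lies on chromosome 9 between 79598991 and 79718831, minus strand, in GRCm38, with 15228 bases of annotated exon. It was at 1688, 1669 and 1804 CPM in the knockouts, and at 1511, 1542 and 2024 CPM in the wild types. The knockout libraries all lie inside the wild-type range, whose top is WT-795. The log2 fold change was 0.02 (SE 0.25, 95% interval -0.50 to 0.55, edgeR adjusted p = 0.971). The interval runs from 0.705-fold to 1.46-fold, and these libraries do not tell differences inside it from none.

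Col14a1 encodes the FACIT of type XIV, which binds fibril surfaces and limits their lateral fusion. It lies on chromosome 15 between 55307750 and 55520803, plus strand (ENSMUSG00000022371). Its level was 259, 216 and 254 CPM in the knockouts against 199, 176.5 and 269.8 CPM in the wild types. WT-795 was the highest of the 6 libraries and the other wild types the lowest. Knockout minus wild type was a log2 difference of 0.18 (SE 0.23, 95% interval -0.31 to 0.66, edgeR adjusted p = 0.734), and it was 0.35 (edgeR adjusted p = 0.273) without WT-795, 0.04 (edgeR adjusted p = 0.986) without WT-597 and 0.04 with the muscle covariate. Col12a1 and Col14a1 had a Pearson r of 0.85 over the 6 libraries on the log2 CPM scale, a description of libraries that share scaling and genotype.

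Col16a1, the chain of type XVI collagen, lies on chromosome 4 between 130047840 and 130099283, plus strand (ENSMUSG00000040690). It was at 139, 160.6 and 127 CPM in the knockouts, and at 208, 229 and 161.2 CPM in the wild types. Every knockout library was below every wild type, but WT-795 sat next to mut-597 and well below the other wild types. The mean was 142 ± 16.9 CPM with the deletion and 200 ± 34.8 CPM without it (SD, n = 3). The log2 fold change was -0.49 (SE 0.22, 95% interval -0.96 to -0.01, unadjusted p = 0.0441, edgeR adjusted p = 0.468). It was the only FACIT gene among the 1643 genes of the authors' deposited table, where its log2 fold change is listed as -0.50, and the rule that chose genes for that table is stated nowhere in the labels or the file. With a correction for transcript GC content the log2 fold change was -0.04 (SE 0.18, 95% interval -0.42 to 0.34), and without WT-795 it was -0.64 (edgeR adjusted p = 0.0584).

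The log2 fold changes of the type IX genes differed in sign, with overlapping 95% intervals. Col9a1 encodes the chain that carries the amino-terminal globular domain and lies on chromosome 1 between 24177610 and 24252684, plus strand (ENSMUSG00000026147). It was at 17.7, 26.7 and 36.2 CPM in the knockouts and at 18.5, 10.5 and 33.7 CPM in the wild types. In each group the highest library was the last, mut-795 and WT-795, and the groups overlapped. Knockout minus wild type was a log2 difference of 0.38 (SE 0.36, 95% interval -0.40 to 1.15, edgeR adjusted p = 0.644). Without WT-795 it was 0.87 (edgeR adjusted p = 0.0862), and 0.04 without WT-597 (edgeR adjusted p = 0.990).

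Col9a2 encodes the chain that bears the attached glycosaminoglycan and lies on chromosome 4 between 121039385 and 121055322, plus strand (ENSMUSG00000028626). It had 25, 32 and 89 counts in the knockouts and 106, 103 and 40 in the wild types. These were 3.30, 4.80 and 9.16 CPM in knockout and 10.1, 9.72 and 5.54 CPM in wild type. Each group had a library at the level of the other, mut-795 among the high wild types and WT-795 near the low knockouts. The log2 fold change was -0.54 (SE 0.37, 95% interval -1.34 to 0.25, edgeR adjusted p = 0.535). It was -0.05 (SE 0.33) with the GC correction, -1.08 without mut-795 (edgeR adjusted p = 0.524), and 0.11 with a covariate for the libraries with Xist (edgeR adjusted p = 0.976).

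Col9a3 encodes the remaining chain of the trimer and lies on chromosome 2 between 180597790 and 180622189, plus strand (ENSMUSG00000027570). It was at 11.0, 20.7 and 25.2 CPM in the knockouts and at 16.8, 14.2 and 30.2 CPM in the wild types. As for Col9a1, mut-795 and WT-795 were the highest of their groups. Knockout minus wild type was a log2 difference of -0.09 (SE 0.33, 95% interval -0.80 to 0.61, edgeR adjusted p = 0.909), and its sign changed with several settings, for instance to 0.20 with the GC correction. Its annotated exons share 234 bases with Tcfl5 on the opposite strand, and it is not stated that strand was used in counting, so reads there cannot be told apart.

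The mean of the chondrocyte markers moved with Col9a1 and Col9a3 across libraries, but single markers did not all do so. Acan was highest in WT-597 at 138 CPM and lowest in mut-795 at 68.9 CPM. Chad was highest in WT-596 at 15.9 CPM, and Col2a1 in WT-795 at 150 CPM. The mean log2 CPM of the 15 markers was highest in WT-795 at 4.63 and mut-795 at 4.37, and lowest in WT-597 at 3.75, where Col9a1 was also lowest. It was 3.99, 4.16 and 4.13 in mut-596, mut-597 and WT-596. With that mean as a covariate the log2 fold change of Col9a1 was 0.46 (SE 0.21, edgeR adjusted p = 0.350), that of Col9a3 -0.09 (SE 0.24) and that of Col9a2 -0.52 (SE 0.38). Col9a1 and Col9a3 had a Pearson r of 0.81 over the 6 libraries, and Col9a1 and Col9a2 of -0.17, although their products assemble into 1 molecule.

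RNA levels per kilobase were also read for the type IX genes within each library. Col9a1, Col9a2 and Col9a3 were at 3.65, 3.25 and 4.36 CPM per kilobase in WT-596 and at 2.07, 3.14 and 3.67 in WT-597. In WT-795 they were at 6.64, 1.79 and 7.84. In mut-596 they were at 3.49, 1.07 and 2.84, in mut-597 at 5.27, 1.55 and 5.37, and in mut-795 at 7.14, 2.96 and 6.54. Col9a2 was thus the lowest of the 3 in every library but WT-597, where Col9a1 was lowest. The transcript GC contents are 52.2% for Col9a1, 62.7% for Col9a2 and 59.2% for Col9a3. The GC trend of the libraries given above was not removed from these levels, and its part in them was not tested.

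Col22a1 encodes the FACIT of myotendinous junctions and lies on chromosome 15 between 71795795 and 72034227, minus strand (ENSMUSG00000079022). It was at 32.4, 49.3 and 37.8 CPM in the knockouts and at 51.3, 58.2 and 44.2 CPM in the wild types. The groups overlapped through mut-597 and WT-795. The log2 fold change was -0.37 (SE 0.23, 95% interval -0.85 to 0.12, edgeR adjusted p = 0.510). The mean of the skeletal muscle markers moved with it in part. Their mean log2 CPM was lowest in mut-596 at 6.39 and highest in WT-597 at 8.66, the libraries with the lowest and highest Col22a1, and lay at 7.44, 7.27, 7.30 and 6.89 in mut-597, mut-795, WT-596 and WT-795. With that mean as a covariate the log2 fold change of Col22a1 was -0.21 (SE 0.21). The shift was not particular to Col22a1. The same covariate moved Col9a2 from -0.54 to -0.29, Col16a1 from -0.49 to -0.36, Col14a1 from 0.18 to 0.04 and Col9a1 from 0.38 to 0.25. Col12a1 went from 0.02 to -0.04 and Col9a3 from -0.09 to -0.14.

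Col19a1 and Col20a1 were close to the limit of counting. Col19a1 had 3, 0 and 3 counts in the knockouts and 1, 4 and 1 in the wild types, and a count of 0 allows up to 0.450 CPM in mut-597 when 3 counts are taken as the limit. Col20a1 had 3, 3 and 9 counts in the knockouts and 8, 7 and 2 in the wild types. Most of these values are at or near that limit, so no fold change is given. The limit covers counting error only, since PCR reads without molecular identifiers are not independent molecules. The exons of Col20a1 share 79 bases with BX649560.1, and those of Col22a1 share 16 bases with Gm16308 on the opposite strand.

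**Figure D2:**
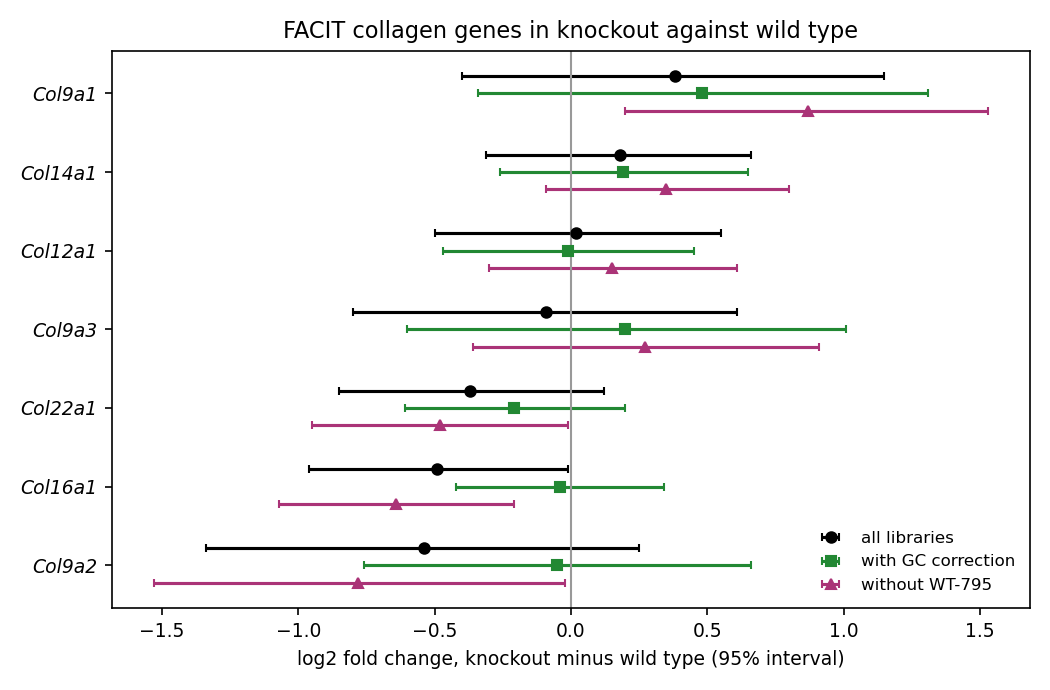
Log2 fold change, knockout over wild type, with its 95% interval (horizontal axis) for the 7 tested FACIT genes, with all libraries (black circles), with the GC correction (green squares) and without WT-795 (purple triangles). Of the intervals with all libraries, that of Col16a1 alone ends below 0, at -0.01, and with the GC correction all 7 span 0. Without WT-795 the intervals of Col9a1 (0.20 to 1.53), Col9a2 (-1.53 to -0.02), Col16a1 (-1.07 to -0.21) and Col22a1 (-0.95 to -0.01) leave out 0. In that setting 4932 of 16702 genes had an edgeR unadjusted p under 0.05, beside 4 of these 7. With any other single library left out, 0 or 1 of the 7 had such a p.

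Transcript GC content was set beside the fold changes, because the median over all genes was lower at higher GC content, and no test of this was made over the 7 FACIT genes. Over all genes tested the median log2 fold change was 0.08 at a GC content of 45% to 50%, -0.18 at 50% to 55%, -0.38 at 55% to 60% and -0.50 at 60% to 65%. Col12a1 and Col14a1, with transcripts of 48.3% and 49.7% GC, were at 0.02 and 0.18. Col16a1 and Col9a2, at 61.4% and 62.7% GC, were at -0.49 and -0.54. Col9a1, at 52.2%, and Col9a3, at 59.2%, lay above the median of their GC range, and Col22a1, at 52.3%, lay below it. With the GC correction the 7 log2 fold changes lay between -0.21 for Col22a1 and 0.48 for Col9a1. Without WT-795 the all-gene median at 60% to 65% GC was -0.68.

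**Figure D3:**
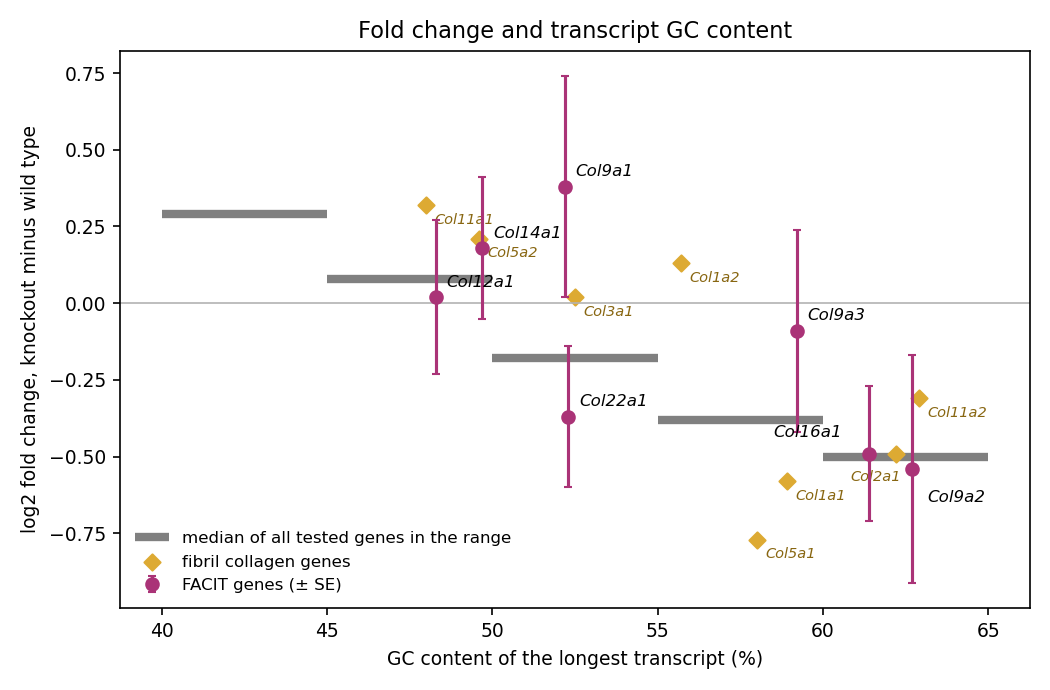
Log2 fold change, knockout over wild type, (vertical axis) and GC content of the longest transcript in percent (horizontal axis), for the 7 tested FACIT genes (purple circles, ± SE) and 8 fibril collagen genes (yellow diamonds), with the median of all tested genes per range of GC content (grey bars). Col16a1 and Col9a2 lie next to the grey bar of -0.50, and Col9a1 lies highest.

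FACIT chains were next set against the fibril collagens they sit on, as the difference of log2 CPM within each library, which does not depend on scaling between libraries. Each value was tested with an exact two-sided permutation test, which for 3 against 3 libraries cannot go below p = 0.1, and 6 such differences were compared. The mean of the 3 type IX chains minus Col2a1, the chain of type II collagen, was -2.44, -2.75 and -2.33 in the knockouts and -2.97, -2.80 and -3.05 in the wild types. All 3 knockouts were above all 3 wild types, with 0.05 between the nearest, a difference of 0.43 (exact p = 0.1, adjusted p = 0.3). Between libraries that share a number in the title the difference was 0.53, 0.05 and 0.72. Col2a1 itself was at a log2 fold change of -0.49 (SE 0.30) with a transcript GC content of 62.2%.

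Col12a1 minus Col1a1, the α1 chain of type I collagen, was -1.92 ± 0.34 in knockout and -2.50 ± 0.64 in wild type (SD, n = 3), a difference of 0.59 (exact p = 0.3). Col14a1 minus Col1a1 differed by 0.75 (exact p = 0.3) and Col16a1 minus Col1a1 by 0.07 (exact p = 0.7). Single libraries moved these: without WT-597 the first was 0.30 and the second 0.39, and without WT-795 they were 0.93 and 1.13. For Col12a1 and Col14a1, WT-795 lay within the knockout range, at -1.81 and -4.72. Col1a1 has a transcript GC content of 58.9%, near that of Col16a1 and above those of Col12a1 and Col14a1. Among the type IX chains, Col9a3 minus Col9a1 was lower in every knockout library, by 0.57 on average, at -0.52 ± 0.16 against 0.04 ± 0.33 (SD, n = 3, exact p = 0.1, adjusted p = 0.3). Col9a2 minus Col9a1 was -2.24 ± 0.25 in knockout and -1.17 ± 1.25 in wild type (SD, n = 3, exact p = 0.4), with WT-795 lowest of all at -2.55. That difference was -0.53 without WT-597 and -1.76 without WT-795, and that of Col9a3 minus Col9a1 was -0.37 without WT-597. These last 2 differences were chosen after the values were seen.

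**Figure D4:**
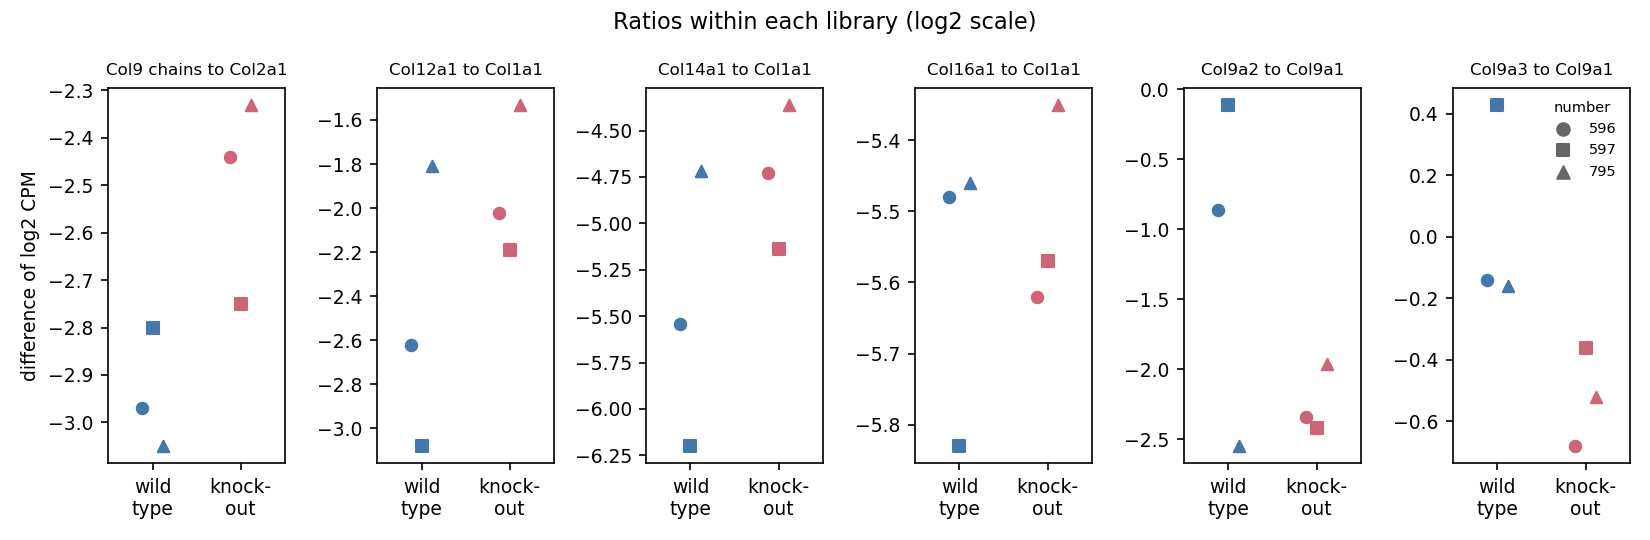
Differences of log2 CPM within each library (vertical axis, its range set per panel) for 6 pairs of a FACIT gene and a partner, in 3 wild-type (blue) and 3 knockout (red) libraries, with marker shape for the number in the title. The groups are apart for the Col9 chains against Col2a1 and for Col9a3 against Col9a1, and overlap in the other 4 panels.

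With all libraries none of the fibril collagens was called by edgeR. Of 8 genes, 4 lay above 0 and 4 below, with a median log2 fold change of -0.15. Those with the smallest p were Col5a1, which encodes a type V chain that starts type I fibrils, at -0.77 (SE 0.27), Col1a1 at -0.58 (SE 0.32) and Col2a1 at -0.49 (SE 0.30). Of these, Col1a1 was at 9810 ± 2990 CPM in wild type and 6570 ± 1240 CPM in knockout, and Col5a1 at 1240 ± 355 and 728 ± 143 CPM (SD, n = 3). Col1a2, which encodes the other chain of type I collagen, and Col3a1, the chain of type III collagen, were at 0.13 (SE 0.30) and 0.02 (SE 0.27). The median of the list with the GC correction was 0.15, on the other side of 0, with Col5a1, Col1a1 and Col2a1 at -0.38, -0.16 and -0.14. Without WT-795, Col5a1 passed at -1.0 (edgeR adjusted p = 0.0184). Col1a1 was at -0.34 without WT-597, and Col2a1 at -0.24 without mut-596 and -0.28 without WT-795.

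Among 9 matrix proteins that bind FACIT chains, Fbn1 alone fell past the adjusted threshold, and 4 lay above 0 and 5 below. Comp, whose pentamer binds type IX collagen, averaged 44.1 ± 13.9 CPM in the wild types and 21.4 ± 2.06 CPM in the knockouts (SD, n = 3), with a log2 fold change of -1.05 (SE 0.25, edgeR adjusted p = 0.459). Fmod, the gene of fibromodulin, which binds type XII collagen, was at -0.72 (SE 0.26), and its groups did not overlap. Tnxb, Dcn and Tnc, further partners of type XII and XIV, were at -0.53, 0.24 and 0.08, and Matn3 and Fn1 at 0.35 and -0.07. Without WT-795, Comp (edgeR adjusted p = 0.0102) and Fmod (edgeR adjusted p = 0.0266) passed, and Comp also passed by DESeq2 (adjusted p = 0.0491). With the GC correction Comp was at -0.61 and Fmod at -0.48, and without WT-596 Fmod was at -0.41.

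None of the 7 collagen receptor genes passed, 4 above 0 and 3 below, with a median of 0.21. Itga2 and Itga1, α subunits of collagen-binding integrins, were at 0.61 (SE 0.31) and 0.55 (SE 0.27), and the discoidin domain receptor gene Ddr1 at -0.50 (SE 0.32). The median was 0.06 with the GC correction, and Itga2, Itga1 and Ddr1 were then at 0.38, 0.30 and -0.05. Without mut-596, Itga2 was at 0.23 and Itga1 at 0.29, and without WT-597 Itga2 was at 0.36, Itga1 at 0.37 and Ddr1 at -0.33. Of 9 genes for chain modification and folding, none passed, 4 lay above 0 and 5 below, and the median was -0.16. Plod3, a lysyl hydroxylase with glycosyltransferase activity, was at -0.63 (SE 0.23), Serpinh1, the collagen chaperone, at -0.63 (SE 0.26), and P4ha2, a prolyl hydroxylase subunit, at -0.35 (SE 0.24). With the GC correction these were at -0.26, -0.28 and -0.18. Without WT-795, Serpinh1 passed at -0.86 (edgeR adjusted p = 0.0269) and P4ha2 was at -0.55, against -0.17 without WT-597.

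Markers of other cell types gave the setting of these values. The tendon list had 6 of 8 genes below 0 (median -0.29), with Fmod, Egr1 and Thbs4 at -0.72, -0.94 and -0.58, and none passed. The muscle list had 11 of 12 genes below 0 (median -0.68), with Des, Actn2 and Tnnt3 at -1.42, -1.39 and -1.25. WT-597 carried much of these values, which were -0.74, -0.44 and -0.25 without it. The chondrocyte list had 10 of 15 above 0 (median 0.14), with Chad, Acan and Col2a1 at -1.19, -0.54 and -0.49. The osteoblast list had 6 of 7 below 0 (median -0.42), with Ifitm5, Sp7 and Alpl at -1.07, -0.44 and -0.42. Of perichondrium and fibroblast genes 6 of 10 lay above 0 (median 0.09), with Clec3b, Pi16 and Prrx1 at -1.02, -0.95 and 0.49. Schwann cell genes had 3 of 4 tested above 0, with Mbp at 1.77. Endothelial and blood lists had medians of -0.03 and -0.31, with Tie1, Kdr and Cdh5 at -0.58, 0.27 and 0.20, and Cd68, Ptprc and C1qa at -1.35, 0.57 and -0.39. With the GC correction the median was -0.39 for muscle, -0.16 for osteoblast, -0.16 for perichondrium and fibroblast and 0.05 for blood, the last 2 on the other side of 0. No gene of these marker lists passed by edgeR after adjustment with all libraries, while without WT-795 the partner and marker lists together had 23 genes past the threshold. Over all genes, 1517 of 16702 tested passed without WT-795. The part of cell composition in the FACIT values was not tested beyond the covariates given.

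The genes whose log2 CPM ran most like each FACIT gene over the 6 libraries were sought among 7841 genes whose log2 CPM averaged 3 or more. The libraries share scaling and genotype, and the values are given as a description. For Col12a1 they were Rdh10 (r = 0.983) and Sec16b (r = 0.978), for Col14a1 Lhfpl2 (r = 0.998) and Erap1 (r = 0.994), and for Col16a1 Scaf1 (r = 0.996) and Fxyd5 (r = 0.995). For Col9a1 they were Zbtb33 (r = 0.997) and Tmed7 (r = 0.994), for Col9a2 Ilk and Ydjc (r = 0.991 each), for Col9a3 Bmi1 (r = 0.986) and Tead2 (r = 0.968), and for Col22a1 Ncbp2 (r = 0.994). No FACIT or fibril collagen gene was among these, but Col9a2 lay below the level needed and could not be found. Each r was picked as the highest of 7841 genes over 6 libraries, so high values come with the search. Between the FACIT genes, r was 0.88 for Col16a1 with Col22a1 and -0.87 for Col14a1 with Col16a1.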

How the data were processed

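Per the labels' protocols, RNA from an RNeasy micro kit was turned into libraries with SMART-Seq v4 and Nextera XT. The authors deposited whole-number counts per gene, not normalized, whose column names are those of coordinate-sorted alignment files. GRCm38.p6 and DESeq2 are named as build and tool, per the submitters' processing notes; whether counting used strand, and how it treated reads that match more than 1 place, is stated nowhere in the labels. A table the authors deposited gives a log2 fold change per gene (knockout relative to wild type), its log base judged from the values.

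Symbols, positions, exon length and GC content of the longest transcript came from GENCODE M21, in which all 55536 identifiers had a symbol. The test was edgeR 4.0.16 (glmQLFit, glmQLFTest, R 4.3.3) on the deposited counts over 15712 genes left by filterByExpr, with TMM scaling, no covariates, two-sided, Benjamini-Hochberg adjusted over all genes, threshold 0.05. The SE is the log2 fold change over the square root of F. Log2 CPM used a prior count of 2. Alternatives were other scaling, filters and tools (DESeq2 1.42.0, limma 3.58.1), a replicate block, a GC correction by a per-library loess offset, covariates for Xist, chondrocyte and muscle markers, and leaving out each library. The procedure was tested on simulated data. Named were all 9 genes, Fbn1, genes of the partner lists, the 3 genes of smallest p in each list, and the 2 genes of highest r for each FACIT gene; a few genes that this rule names are not reported here. Postn was named besides for its share of a summed level. Members and lists were chosen with earlier results of these data known.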

Additional observations from a re-analysis of the deposited data

How the results depend on the processing

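None of the 7 tested FACIT genes passed the adjusted threshold under any setting that gave them an adjusted p (DESeq2 gave none for Col9a2 and Col9a3), nor did Col19a1 and Col20a1 with no filter, the only setting that gave them one, and the lowest adjusted p was 0.0584, for Col16a1 without WT-795. At an unadjusted p under 0.05 stood 0 to 4 of them, the 4 without WT-795, where 4932 of 16702 genes did, beside 1 with all libraries, where 1648 of 15712 did. Over all genes the number past the threshold was 1, and it was 270 with no filter, 20 by DESeq2, 4 with the replicate block and GC correction together, 0 with the Xist covariate, and 1 to 1517 with 1 library left out, the highest without WT-795 and 12 without mut-795. For partner and marker genes it was 1, and 12, 2, 3 and 0 under the same 4 settings, and 1 to 23 with 1 library left out, the highest without WT-795. The cause of these moves was not tested. The sign of Col12a1 changed to -0.01 with upper-quartile scaling and with the GC correction, to 0.00 with that correction and the replicate block, and to -0.04 with the muscle covariate, with -0.06 to 0.15 over single libraries left out. Col9a3 turned to 0.14 with sample weights in limma-voom, 0.20 with the GC correction, 0.28 with that and the replicate block and 0.31 with the Xist covariate, with -0.37 to 0.27 over single libraries left out, and Col9a2 turned to 0.11 with the Xist covariate. C1qa turned to 0.05 with the GC correction and 0.06 with the block added, and Cdh5 to -0.03 with the Xist covariate. Col16a1 minus Col1a1 ranged from -0.05 to 0.14 over single libraries left out. The Xist covariate leaves mut-795 alone against the wild types. Same-numbered libraries did not deviate together (correlations of -0.177, 0.244 and -0.201), and with the replicate block Col16a1 was at -0.48 and 1 gene passed.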
